A study of Mus musculus with 30 samples.

Results

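Metallothioneins and the genes that sense and move zinc were followed in mouse tail fibroblasts exposed to 8 small molecules. The set holds 5 genes chosen by symbol: Mt1, Mt2, Mtf1, Slc30a1 and Slc39a10. All 5 were found among the 29861 genes of the expression table by matching Ensembl identifiers to GENCODE M21, and all 5 belonged to the 13644 genes that reached 1 TPM in at least 3 libraries and were tested. TPM, transcripts per 1000000, is a length-corrected share of a library's transcripts, so levels of different genes can be set side by side.

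The cells were CCG-HTA-1, a primary tail fibroblast line derived from UMHet3 mice and used at passage 4. Every culture had high-glucose DMEM without pyruvate, 10% serum, ambient oxygen and 10% CO2, received its agent 24 hours after plating, and was harvested 48 hours after that. The 8 compounds had 3 libraries each: Antimycin A and Dihydrorotenone, inhibitors of mitochondrial electron transport, Diphenyleneiodonium Cl, which blocks flavoenzymes, Cardamonin, a chalcone from plants, BerberineA and AEG 3482, given here as the labels name them, Clofilium tosylate, a blocker of potassium channels, and Podofilox, which prevents microtubule assembly. The solvent control, DMSO, had 6 libraries. The title of the series asks about stress resistance that does or does not need NRF2, the factor that turns on antioxidant genes. Donor mice were labelled 5 to 8 weeks old, except for Dihydrorotenone replicate 1, whose label reads 8 to 11 weeks. Doses are not given in the labels. All libraries come from 1 cell line, so p-values measure the spread between these libraries, which may be technical.

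Listed genes summed to 927024 to 937134 TPM in a library, and 12229 to 12700 genes reached 1 TPM. The number of reads behind each library is not recorded in TPM, so depth is unknown. All 10 fibroblast markers were present, and their summed level was 14046 to 16831 TPM in DMSO. Keratinocyte, endothelial, skeletal muscle and adipocyte markers summed to at most 0.0863, 0.851, 0.793 and 0.119 TPM in any library, and Krt5, Myod1 and Plin1 were listed at 0 in all. Markers of macrophages and other leukocytes summed to 17.5 to 45.1 TPM. Consecutive library numbers fall within each group, so a group and a library batch cannot be told apart.

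Metallothioneins are small cysteine-rich proteins that hold zinc and copper in the cell and release them again. MTF1 is the zinc-sensing transcription factor of this system: when free zinc rises it binds short metal response elements in the promoters of the metallothionein genes and of Slc30a1. SLC30A1, also called ZnT1, carries zinc out of the cell, and SLC39A10, also called ZIP10, carries it in. Slc39a10 is known as a gene that MTF1 can hold down when zinc is plentiful, and metallothionein genes are also known to answer to oxidative stress and glucocorticoids.

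The genes lie at 4 places in GRCm38. Mt2 (ENSMUSG00000031762, chr8:94172664-94173568, plus strand) and Mt1 (ENSMUSG00000031765, chr8:94179082-94180327, plus strand) are neighbours with 5513 bases between them. Mtf1 (ENSMUSG00000028890) occupies chr4:124802104-124849800 on the plus strand, Slc30a1 (ENSMUSG00000037434) chr1:191906767-191913247 on the plus strand, and Slc39a10 (ENSMUSG00000025986) chr1:46807544-46892852 on the minus strand. All are annotated as protein-coding, and the values are for whole genes.

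The promoters of Mt1, Mt2 and Slc30a1 are shown because these are the members whose windows carry the letters of the metal response element. The sequences are from RefSeq (GRCm38.p6), each with 250 bases before the annotated start and the first 30 bases after it, 5′ to 3′ on the plus strand, at chr8:94178839-94179118, chr8:94172368-94172647 and chr1:191906531-191906810. Capitals mark matches to TGCACNC or TGCGCNC, the element's core, on either strand.
Mt1: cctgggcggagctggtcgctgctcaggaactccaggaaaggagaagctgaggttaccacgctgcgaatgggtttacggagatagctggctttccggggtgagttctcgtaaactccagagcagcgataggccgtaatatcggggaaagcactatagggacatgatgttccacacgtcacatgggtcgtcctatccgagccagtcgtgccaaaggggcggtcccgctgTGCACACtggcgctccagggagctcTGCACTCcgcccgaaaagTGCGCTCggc
Mt2: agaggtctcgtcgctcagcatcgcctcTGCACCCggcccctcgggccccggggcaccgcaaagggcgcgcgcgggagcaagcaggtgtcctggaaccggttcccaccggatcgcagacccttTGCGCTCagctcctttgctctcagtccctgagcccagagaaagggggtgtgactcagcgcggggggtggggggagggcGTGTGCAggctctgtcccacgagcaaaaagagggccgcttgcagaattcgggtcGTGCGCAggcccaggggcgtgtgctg
Slc30a1: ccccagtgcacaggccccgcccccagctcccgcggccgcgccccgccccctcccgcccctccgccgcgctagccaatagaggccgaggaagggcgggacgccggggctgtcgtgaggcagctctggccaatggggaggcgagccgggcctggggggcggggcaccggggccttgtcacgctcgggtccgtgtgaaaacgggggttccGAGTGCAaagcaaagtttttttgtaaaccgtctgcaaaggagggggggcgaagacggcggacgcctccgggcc

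In the full RefSeq window of 300 bases, which runs 50 bases past the start, Mt1 had 3 core matches, at -23 to -17, 3 to 9 and 21 to 27 counted from the RefSeq start. Mt2 had 4, at -223 to -217, -128 to -122, -50 to -44 and 5 to 11. Slc30a1 had 2, at -43 to -37 and, just past the printed stretch, at 31 to 37. No letters of either core were found in the window of Mtf1 or in the windows of Slc39a10. The latter lie at chr1:46925727-46926026 and chr1:46853569-46853868. Neither covers the 5′ end of Slc39a10 in GENCODE M21, at 46892852, which was not searched. Of 32851 RefSeq windows of this length, 25.7% held at least 1 core match, 7.11% at least 2, 1.97% at least 3 and 0.517% at least 4. The core of the antioxidant response element, TGACNNNGC, searched on both strands, occurred in the windows of Mt2 (-79 to -71) and Slc30a1 (-82 to -74) and in 12.4% of all windows. None of these matches overlapped another, and each is a match of letters only. Sequence beyond the windows was not searched, so a core absent from a window, as TGACNNNGC from that of Mt1, may lie beyond it. Positions are counted from the RefSeq start, and which start these cells use was not tested.

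Both metallothionein genes were abundant in solvent-treated cells, at places 45 (Mt2) and 113 (Mt1) of the 29861 genes by mean TPM. Mt1 rose in Cardamonin, Podofilox and AEG 3482. Mt2 rose in Cardamonin and Podofilox but fell in 5 other compounds, so the 2 neighbours parted in AEG 3482, where Mt1 was higher and Mt2 lower than in DMSO.

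Mt1 ranged from 902 to 1476 TPM in the 6 DMSO libraries, with a median of 1088. In Cardamonin the 3 libraries had 3149.9, 3179.5 and 3702 TPM, and in Podofilox 1944, 2058 and 1711. Every library of these compounds lay above every DMSO library. AEG 3482 gave 1456, 1536 and 1602 TPM, which overlaps DMSO through its highest library, replicate 6. The log2 fold change, on the log2(TPM + 1) scale, was 1.59 ± 0.09 (SE) in Cardamonin (limma adjusted p = 5.86e-14), 0.78 ± 0.09 in Podofilox (limma adjusted p = 1.8e-07) and 0.47 ± 0.09 in AEG 3482 (limma adjusted p = 0.000101). These correspond to 3.01-fold, 1.71-fold and 1.38-fold.

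The other compounds left Mt1 within the DMSO range. Antimycin A gave 1170.9, 1289 and 1180.4 TPM, Diphenyleneiodonium Cl 1241, 1196 and 1197, and Clofilium tosylate 1219, 1205 and 1333. Dihydrorotenone gave 1042, 1061 and 1176 TPM and BerberineA 1001, 1000.2 and 933. All of these ranges overlap that of DMSO, and none of the differences passed the test, with log2 fold changes from -0.18 to 0.18 and adjusted p from 0.189 to 0.915. DMSO replicate 6, the highest DMSO library for Mt1, weighs on them. Without it the differences in Antimycin A, Diphenyleneiodonium Cl and Clofilium tosylate were 0.21, 0.21 and 0.26 and passed (limma adjusted p = 0.0212, 0.0312 and 0.00939). Leaving out the highest control raises these differences by itself, and with any other single library left out none of them passed.

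Mt2 ranged from 1902 to 2263 TPM in DMSO, with a median of 2078. Podofilox gave 3061, 3338 and 2824 TPM and Cardamonin 2960.1, 3166 and 3068, all above DMSO. The rise was the same size in both, at 0.55 ± 0.05 on the log2 scale (adjusted p = 2.41e-09 and 5.35e-10), and Cardamonin minus Podofilox was -0.0017 with a 95% interval of -0.12 to 0.12. Mt1, in contrast, was 0.81 higher in Cardamonin than in Podofilox (95% interval 0.59 to 1.04, adjusted p = 4.63e-07).

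Mt2 fell in 5 compounds. BerberineA gave 1472, 1384 and 1429 TPM, a change of -0.55 ± 0.05 (adjusted p = 3.67e-08), and Dihydrorotenone 1666, 1604 and 1659.8, a change of -0.35 (adjusted p = 6.79e-05). Antimycin A gave 1742, 1895 and 1638 TPM (-0.25, adjusted p = 0.00038) and AEG 3482 gave 1782, 1818 and 1834 (-0.21, adjusted p = 0.0011). Diphenyleneiodonium Cl gave 1866, 1827 and 1846 TPM (-0.18, adjusted p = 0.0124), and this call was lost without its replicate 2 (adjusted p = 0.0529). In each of these 5 compounds every library lay below every DMSO library. Of the distinct 31-base words in Mt2's transcripts, 58.1% also occur in other transcripts, mainly those of Gm45774, so reads can be split between them. The part of such a split in the Mt2 values was not tested. Clofilium tosylate, at 1921, 1874 and 2002 TPM, overlapped DMSO and did not pass (-0.11, adjusted p = 0.124). The value in AEG 3482 was -0.31 after median-ratio scaling, and -0.070 without passing after quantile normalization (adjusted p = 0.171).

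**Figure D1:**
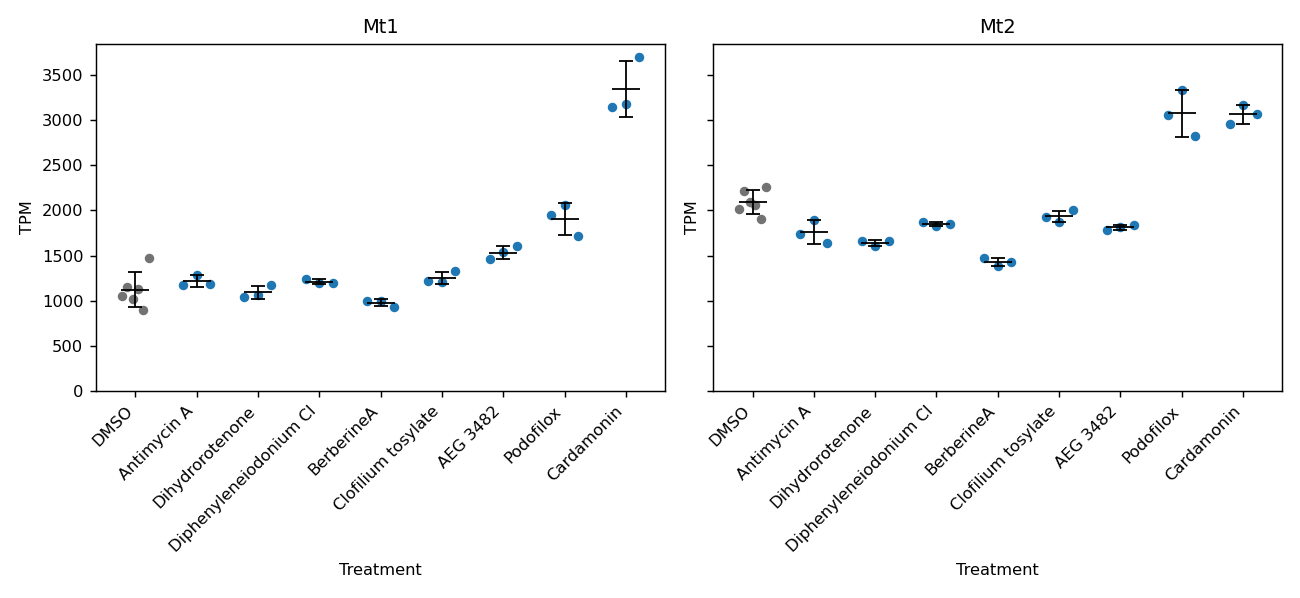
TPM of Mt1 (left) and Mt2 (right) by treatment, with 1 point per library, horizontal bars for means and whiskers for SD (n = 6 for DMSO, n = 3 for each compound). Cardamonin and Podofilox stand above DMSO for both genes, with means of 3344 and 1904 TPM for Mt1 against 1121 in DMSO, and 3065 and 3074 TPM for Mt2 against 2092.

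Ordered by mean level, Mt1 ran from Cardamonin over Podofilox, AEG 3482, Clofilium tosylate, Antimycin A, Diphenyleneiodonium Cl, DMSO and Dihydrorotenone to BerberineA. Of the 8 steps between neighbours in that order, 3 passed: Cardamonin to Podofilox, Podofilox to AEG 3482 (0.31, adjusted p = 0.0157) and AEG 3482 to Clofilium tosylate (0.29, adjusted p = 0.0218). The third was lost after median-ratio scaling (0.18, adjusted p = 0.214) and when rescaled without the 20 most abundant genes (0.22, adjusted p = 0.0728). It was also lost without Clofilium tosylate replicate 1 or 2 or AEG 3482 replicate 3 (adjusted p = 0.0607, 0.0674 and 0.0736). The second was lost without AEG 3482 replicate 1 or Podofilox replicate 2 (adjusted p = 0.0587 and 0.0783). For Mt2 the order was Podofilox, Cardamonin, DMSO, Clofilium tosylate, Diphenyleneiodonium Cl, AEG 3482, Antimycin A, Dihydrorotenone and BerberineA, and 1 step passed, that from Cardamonin to DMSO. The last step, from Dihydrorotenone to BerberineA, was 0.20 with ranges that do not overlap but missed the threshold (adjusted p = 0.0833).

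Dividing Mt1 by Mt2 within a library removes whatever scales both genes alike in that library. It does not remove a split of Mt2 reads with Gm45774, whose part in the ratio was not tested. Mt2 outnumbered Mt1 in DMSO, where the ratio was 0.533 ± 0.0636 (SD, n = 6) and ran from 0.474 to 0.652. In Cardamonin the ratio was 1.09 ± 0.104 (SD, n = 3), so that Mt1 reached or passed the level of Mt2 in all 3 libraries, the lowest being 1.004. AEG 3482 followed at 0.845 ± 0.0281. Antimycin A averaged 0.691, BerberineA 0.685, Dihydrorotenone 0.665, Diphenyleneiodonium Cl 0.656, Clofilium tosylate 0.648 and Podofilox 0.619.

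All 8 compounds had a higher mean ratio than DMSO. The log2 ratio differed by 1.04 in Cardamonin, 0.67 in AEG 3482, 0.38 in Antimycin A and 0.37 in BerberineA, where the libraries do not overlap DMSO (two-sided exact permutation p = 0.0238, the smallest that 3 against 6 libraries can give, and 0.0476 adjusted over the 8 compounds). In the other 4 compounds it differed by 0.32, 0.31, 0.29 and 0.22 and did not pass (exact permutation p adjusted = 0.0635 for Dihydrorotenone and Diphenyleneiodonium Cl, 0.0816 for Clofilium tosylate and 0.0952 for Podofilox). DMSO replicate 6, at 0.652, was again apart from the other 5 DMSO libraries, whose highest was 0.545. Of the 24 treated libraries, 17 lay above all 6. The 4 calls were each lost in 8 of the 9 repeats that left out 1 library (exact permutation p adjusted = 0.0714 to 0.0816), where fewer libraries raise the smallest p. The remaining repeat left out DMSO replicate 6, the control with the highest ratio, a choice that widens the difference, and there all 8 compounds passed (exact permutation p adjusted = 0.0357). The 8 comparisons share the DMSO libraries.

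**Figure D2:**
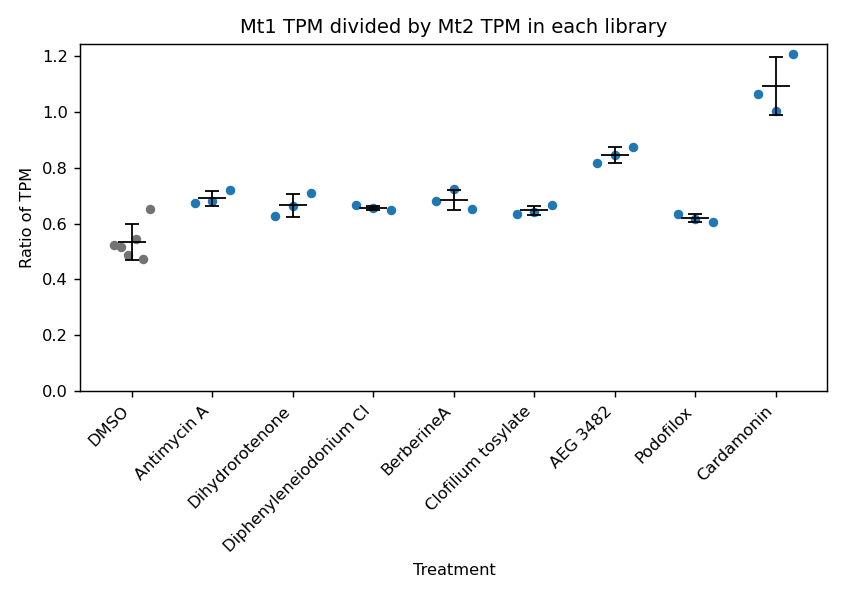
Mt1 TPM divided by Mt2 TPM, 1 point per library, with means and SD (n = 6 for DMSO, n = 3 for each compound). The 3 Cardamonin libraries lie at 1.004 or above and the AEG 3482 libraries between 0.817 and 0.874, while the highest DMSO library, replicate 6, is at 0.652.

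The cluster holds further metallothionein genes. Mt3 (ENSMUSG00000031760, chr8:94152607-94154146), known mainly from the brain, ends 18517 bases before Mt2 starts. It was near the lower limit of the test in DMSO at 1.25 ± 0.952 TPM (n = 6) and stood at 28.5 ± 8.67 in Cardamonin (n = 3), with libraries between 21.5 and 38.2 TPM. The log2 fold change was 3.78 ± 0.28 (adjusted p = 5.14e-12). In AEG 3482 it was 3.46 ± 0.691 TPM, 1.08 higher (adjusted p = 0.00135). At such low levels in DMSO the fold change depends on the pseudocount: over the alternatives, which include 0.1 and 5 TPM, it ran from 2.40 to 4.71 in Cardamonin and from 0.45 to 1.73 in AEG 3482. Its libraries in Podofilox (0.75, adjusted p = 0.0289) and BerberineA (-0.88, adjusted p = 0.0243) overlapped those of DMSO. The first call was lost without Podofilox replicate 1 or 3 or DMSO replicate 1 or 3 (adjusted p = 0.0963, 0.0993, 0.0674 and 0.0674), and the second without BerberineA replicate 2 or 3 or DMSO replicate 2 or 6 (adjusted p = 0.109, 0.11, 0.0541 and 0.0535). The Podofilox call was also lost with 0.1 TPM added, without the filter and with the 2 groups fitted alone (adjusted p = 0.152, 0.0544 and 0.0743). The BerberineA call was also lost with 5 TPM added, with replicate number as a block and with the 2 groups alone (adjusted p = 0.103, 0.184 and 0.0995). Mt4 stayed at or below 0.278 TPM in every library and was not tested.

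Mtf1, which encodes the zinc sensor, was expressed at a low level and rose in AEG 3482 and Cardamonin. DMSO libraries ranged from 5.92 to 9.26 TPM, with a median of 6.98. AEG 3482 gave 11.5, 10.8 and 11.8 TPM, all above DMSO, and Cardamonin 9.26, 8.85 and 10.1, which overlaps the highest DMSO library. The log2 fold changes were 0.60 ± 0.10 (adjusted p = 6.42e-06) and 0.35 ± 0.10 (adjusted p = 0.00252).

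The order of Mtf1 thus differed from that of the metallothioneins, with AEG 3482 first and Cardamonin second, although the step between them missed the threshold (0.25, adjusted p = 0.0649, ranges not overlapping). Podofilox, at 8.01, 8.03 and 8.57 TPM, did not pass against DMSO (0.18, limma adjusted p = 0.147). It passed without DMSO replicate 4 (0.24, limma adjusted p = 0.0249), the highest control for Mtf1, whose removal raises the difference by itself. With any other single library left out it did not pass. Antimycin A gave 8.50, 7.83 and 7.13 TPM, Dihydrorotenone 7.92, 8.42 and 7.41, and Clofilium tosylate 9.45, 6.58 and 7.18. Diphenyleneiodonium Cl gave 6.33, 7.74 and 7.35 TPM and BerberineA 6.49, 6.91 and 7.21. All of these overlap DMSO and none passed. No step between neighbours in the order passed for Mtf1.

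The 3′ end of Mtf1 overlaps 1110065P20Rik (ENSMUSG00000078570, chr4:124849080-124851196), a protein-coding gene on the opposite strand, by 721 bases. They share 691 of the 8898 distinct 31-base words of Mtf1's transcripts, or 7.77%, and whether the libraries kept the strand is not given in the sources used here. 1110065P20Rik also rose in AEG 3482, from 66.9 ± 5.67 TPM in DMSO to 125 ± 5.79 (0.89 on the log2 scale, adjusted p = 3.88e-12), while in Cardamonin it was 70.5 TPM and did not pass (0.075, adjusted p = 0.295). Its part in the Mtf1 value of AEG 3482 was not tested.

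Slc30a1, the zinc exporter of the plasma membrane, had the lowest level of the 5 genes and rose in the same compounds as Mtf1, Cardamonin and AEG 3482. It ran from 2.74 to 3.21 TPM in DMSO, with a median of 2.82. Cardamonin gave 4.12, 4.81 and 4.76 TPM and AEG 3482 3.83, 3.77 and 4.28, all above DMSO. The log2 fold changes were 0.52 ± 0.07 (limma adjusted p = 6.61e-07) and 0.36 ± 0.07 (limma adjusted p = 0.000135), or 1.43-fold and 1.28-fold. At such levels the added 1 TPM makes these folds smaller than the ratios of mean TPM, which were 1.59 and 1.38. With 5 TPM added the log2 fold changes were 0.28 and 0.19.

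The other compounds did not separate from DMSO for Slc30a1. Podofilox had 3.16, 3.13 and 3.15 TPM, Antimycin A 3.25, 2.70 and 3.47, and Clofilium tosylate 3.19, 2.85 and 3.30. BerberineA had 3.05, 2.99 and 2.88 TPM, Diphenyleneiodonium Cl 3.15, 2.84 and 2.65, and Dihydrorotenone 2.36, 2.83 and 3.16. Adjusted p ranged from 0.287 to 0.989. In the order of levels only the step from AEG 3482 to Podofilox passed (0.26, adjusted p = 0.0112), and it was lost without AEG 3482 replicate 3 (adjusted p = 0.0617) and when the 20 most abundant genes were removed before rescaling (adjusted p = 0.0556). Podofilox thus raised both metallothionein genes while Slc30a1 was 0.10 higher and did not pass, with a 95% interval of -0.05 to 0.25. Of the 31-base words of Slc30a1, 8.38% occur in other transcripts, mainly those of 1700034H15Rik, and of those of Mt2 58.1%, mainly in Gm45774. Reads of such stretches can be split between genes. Mt1 shares no word with another gene, Mt2 included.

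Slc39a10, the zinc importer, moved in opposite directions in Podofilox and Cardamonin. DMSO ranged from 18.5 to 23.4 TPM, with a median of 22.0. Podofilox gave 36.6, 37.2 and 40.7 TPM, all above DMSO, and Cardamonin 15.5, 14.3 and 14.0, all below it. The log2 fold changes were 0.80 ± 0.06 (adjusted p = 1.46e-10) and -0.53 ± 0.06 (adjusted p = 5.32e-08), and Cardamonin was below Podofilox by -1.33 (95% interval -1.48 to -1.18, adjusted p = 4.77e-14).

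Antimycin A raised Slc39a10 a little, with 26.1, 24.7 and 25.4 TPM, all above DMSO (0.23, adjusted p = 0.00537). Diphenyleneiodonium Cl gave 24.1, 22.5 and 23.1 TPM, BerberineA 21.1, 22.4 and 25.3, and Clofilium tosylate 23.4, 19.8 and 20.9. Dihydrorotenone gave 20.6, 20.6 and 21.7 TPM and AEG 3482 21.4, 19.9 and 21.3. These 5 compounds overlap DMSO and none passed. In AEG 3482 the difference was -0.04 (95% interval -0.17 to 0.09, adjusted p = 0.62), but it was -0.14 and passed after median-ratio scaling (adjusted p = 0.0363), and -0.17 after quantile normalization (adjusted p = 0.0126). The steps that passed in the order of levels were Podofilox to Antimycin A (0.57, adjusted p = 7.02e-07) at the top and AEG 3482 to Cardamonin (0.49, adjusted p = 3.39e-06) at the bottom.

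**Figure D3:**
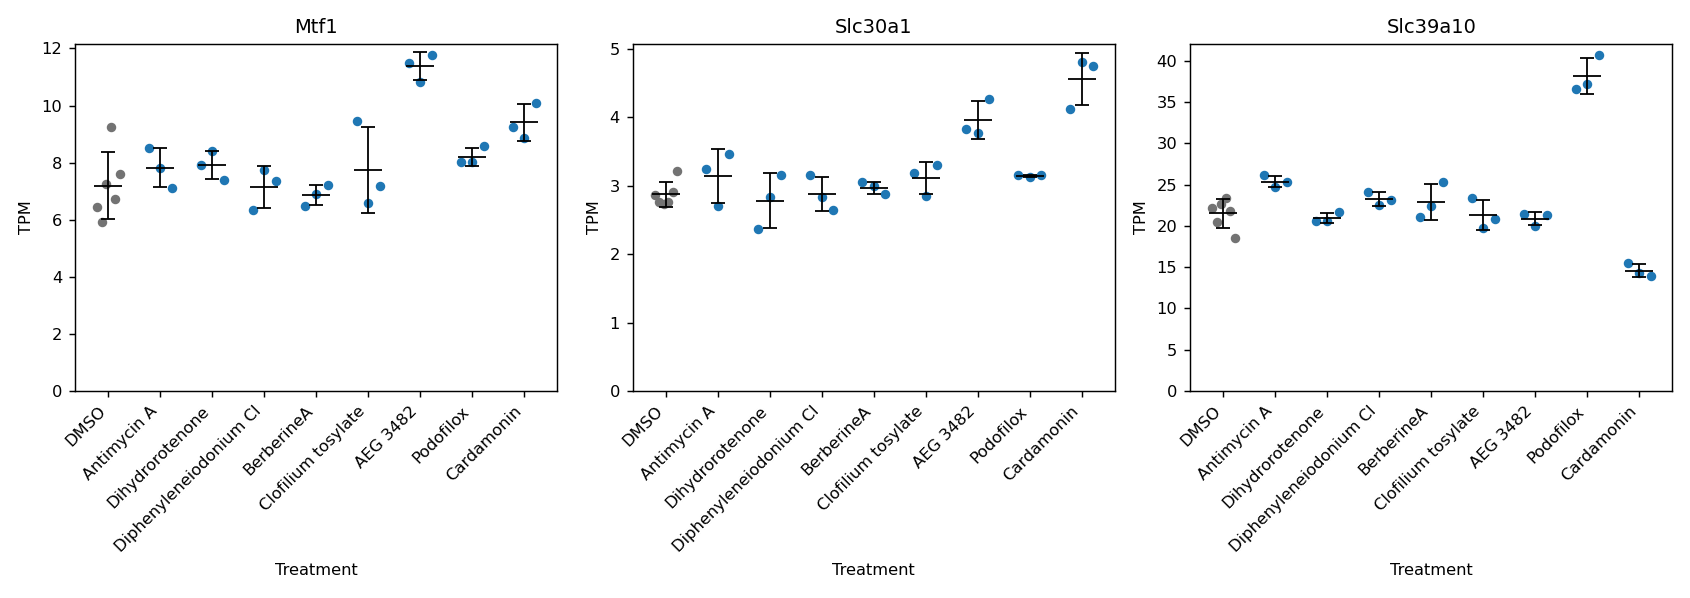
TPM of Mtf1, Slc30a1 and Slc39a10 by treatment, 1 point per library, with means and SD (n = 6 for DMSO, n = 3 for each compound). AEG 3482 is highest for Mtf1 with a mean of 11.4 TPM, Cardamonin is highest for Slc30a1 at 4.56 and lowest for Slc39a10 at 14.6, and Podofilox is highest for Slc39a10 at 38.2.

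Counted over the 5 genes, Cardamonin changed all 5, with 4 higher and Slc39a10 lower, where 70.3% of all tested genes passed. AEG 3482 changed 4 (Mt1, Mtf1 and Slc30a1 higher, Mt2 lower) against 68.1% of tested genes, and Podofilox raised 3 (Mt1, Mt2 and Slc39a10) against 46.2%. Antimycin A changed 2 (Mt2 lower, Slc39a10 higher) against 37.3%. In Diphenyleneiodonium Cl, BerberineA and Dihydrorotenone the call was Mt2 alone, lower, where 25.7%, 21.7% and 14.4% of tested genes passed. In Clofilium tosylate limma called 0 of 5 (1 at an unadjusted p under 0.05, Mt2), with 23.4% of tested genes passing. Since most tested genes passed in Cardamonin and AEG 3482, the counts there are not a result about these 5 genes. With so few genes the counts in the other compounds cannot be told from the shares either, and none was tested against its share. Their median log2 fold change was 0.55 in Podofilox, 0.52 in Cardamonin and 0.36 in AEG 3482, beside 0.036, 0.033 and 0.097 over all tested genes.

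The compounds were also set against each other directly. Cardamonin and AEG 3482 differed in 3 of the 5 genes (55.3% of all tested genes), with Mt1 higher by 1.12, Mt2 higher by 0.76 and Slc39a10 lower by -0.49 in Cardamonin. Mtf1 (-0.25, 95% interval -0.48 to -0.02, adjusted p = 0.0649) and Slc30a1 (0.16, 95% interval -0.01 to 0.34, adjusted p = 0.103) did not pass. Cardamonin and Podofilox differed in 3 (57.8% of tested genes), Mt1 and Slc30a1 being higher and Slc39a10 lower in Cardamonin. AEG 3482 and Podofilox differed in all 5 (60.3% of tested genes): Mtf1 (0.43) and Slc30a1 (0.26) were higher and Mt1 (-0.31), Mt2 (-0.76) and Slc39a10 (-0.84) lower in AEG 3482.

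Further pairs that neighbour each other in the orders above gave 3 of 5 for Clofilium tosylate against AEG 3482 (64.4% of tested genes), all lower in Clofilium tosylate, and 3 of 5 for Antimycin A against Podofilox (41.4% of tested genes), all lower in Antimycin A. Dihydrorotenone against BerberineA gave 0 of 5 by limma (1 at an unadjusted p under 0.05, Mt2), where 1.51% of tested genes passed.

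Some sums of cell type markers moved with the compounds too. The 10 fibroblast markers summed to 14046 to 16831 TPM in DMSO and to 6163 to 8029 in Cardamonin. Their sums also lay wholly below DMSO in Antimycin A (10678 to 11990), Clofilium tosylate (12281 to 13117), Podofilox (13073 to 13933), Diphenyleneiodonium Cl (13214 to 13902) and BerberineA (12688 to 14006), while Dihydrorotenone (12446 to 14390.1) and AEG 3482 (14691 to 16807) overlapped it. Of 3 chondrocyte markers, Col2a1, Acan and Sox9, 1 had a mean of at least 1 TPM and none was at 0 in all libraries. Their sum was 3.73 to 6.18 TPM in DMSO and lay wholly above it in the compounds where Mt1 rose, at 6.44 to 6.79 in Cardamonin, 7.15 to 7.86 in AEG 3482 and 6.99 to 7.75 in Podofilox. In the other 5 compounds it was 3.83 to 6.86 TPM and overlapped DMSO. The 4 melanocyte and Schwann markers, 2 of them with a mean of at least 1 TPM, summed to 3.72 to 5.88 TPM in DMSO. Their sums overlapped DMSO in every compound, with 3.34 to 6.31 TPM over all libraries. Markers of macrophages and other leukocytes, 3 of 5 with a mean of at least 1 TPM, summed to 25.2 to 29.9 TPM in DMSO, 28.8 to 45.1 in Cardamonin, 19.1 to 20.8 in AEG 3482 and 20.7 to 23.0 in Podofilox. A single marker reached 41.4 TPM, so 1 marker made up most of the highest sum, that of Cardamonin replicate 3. The part of these marker differences in the values of the 5 genes was not tested. In bulk RNA, fewer cells of a type and less RNA per cell cannot be told apart.

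A wider list of zinc, copper and metallothionein genes held 45 genes in 6 groups, of which 35 were tested. Its counts stand beside the shares of all tested genes given above, and a count near such a share is not a result about the list. Among 10 tested zinc importers of the SLC39 family, Podofilox raised 6 and lowered none, where 46.2% of all tested genes passed, with a median log2 fold change of 0.25 beside 0.036 over all genes. AEG 3482 raised 4 and lowered 5 (68.1% of all tested genes passed), and Cardamonin raised 5 and lowered 4 (70.3%). Antimycin A raised 3 and lowered 4 (37.3%), and Diphenyleneiodonium Cl raised 1 and lowered 3 (25.7%). Clofilium tosylate raised 1 and lowered 2 (23.4%), and BerberineA (21.7%) and Dihydrorotenone (14.4%) raised none and lowered 3 and 2.

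Slc39a8, which carries zinc and manganese, showed the widest spread of the importers. It fell from 12.2 ± 1.20 TPM in DMSO to 2.77 ± 0.28 in AEG 3482 (-1.81, adjusted p = 3.52e-18, and -1.14 with 5 TPM added) and rose to 33.5 ± 1.17 in Podofilox (1.39, adjusted p = 5.31e-15). Slc39a14, another carrier of zinc, iron and manganese, went the same ways, from 186 ± 16.9 TPM to 91.8 ± 4.27 in AEG 3482 (-1.004, adjusted p = 4.48e-10) and 265 ± 16.1 in Podofilox (0.51, adjusted p = 4.82e-05). In Cardamonin Slc39a14 (-0.62, limma adjusted p = 1.38e-06) and Slc39a8 (-0.31, limma adjusted p = 0.00012) also fell, and in Antimycin A Slc39a8 rose (0.35, limma adjusted p = 9.37e-05). Slc39a6, the closest relative of Slc39a10 and its known partner, rose in Cardamonin from 34.3 ± 1.53 to 72.1 ± 2.21 TPM (1.05, adjusted p = 1.59e-17), where Slc39a10 fell, and also in AEG 3482 (0.79) and Podofilox (0.66). Slc39a13, a zinc carrier of the secretory pathway, fell in Cardamonin from 124 ± 13.02 to 39.9 ± 2.72 TPM (-1.61, adjusted p = 4.05e-15). It fell less in AEG 3482 (-0.42, limma adjusted p = 8.54e-05) and Antimycin A (-0.42, limma adjusted p = 0.000275).

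Of the 5 tested zinc exporters of the SLC30 family other than Slc30a1, Podofilox raised 3 (46.2% of all tested genes passed), Cardamonin raised 3 and lowered 1 (70.3%), and AEG 3482 raised 1 and lowered 1 (68.1%). The other compounds raised none. In Dihydrorotenone, Diphenyleneiodonium Cl and Clofilium tosylate 3 fell (14.4%, 25.7% and 23.4% of all tested genes passed), and in Antimycin A and BerberineA 2 fell (37.3% and 21.7%). Their median log2 fold changes in these 5 compounds ran from -0.16 to -0.077, beside -0.033 to 0.032 over all tested genes. Of 9 tested genes of copper handling, 5 rose and 3 fell in Cardamonin (70.3% of all tested genes passed). In AEG 3482 3 rose and 2 fell (68.1%), and in Antimycin A 3 rose and 1 fell (37.3%). In Podofilox (46.2%) and in Clofilium tosylate (23.4%) 2 rose and 1 fell. Diphenyleneiodonium Cl (25.7%) and BerberineA (21.7%) each raised 1 and lowered 1, and Dihydrorotenone raised 1 (14.4%).

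Of 5 tested genes that have been linked to MTF1 outside the members, 1 rose and 4 fell in Cardamonin (70.3% of all tested genes passed), 1 rose and 3 fell in AEG 3482 (68.1%), and 2 rose and none fell in Podofilox (46.2%). The gene that rose in Cardamonin and AEG 3482 was Gclc, which encodes the catalytic subunit of glutamate-cysteine ligase and is also a known NRF2 target. It went from 52.8 ± 6.45 TPM in DMSO to 823 ± 47.1 in Cardamonin (3.94, adjusted p = 4.68e-24) and 366 ± 28.4 in AEG 3482 (2.78, adjusted p = 3.88e-21). Gclc also rose in Podofilox, to 79.8 ± 4.62 TPM (0.59, limma adjusted p = 9.41e-08). Smaller calls were 0.25 in Diphenyleneiodonium Cl and 0.19 in Antimycin A, where libraries overlapped DMSO, and -0.24 in Dihydrorotenone. Each of these smaller calls was lost in some alternatives. Csrp1, a LIM-domain protein of the actin cytoskeleton, fell from 99.1 ± 7.63 to 22.6 ± 1.84 in Cardamonin (-2.09) and 31.6 ± 1.73 in AEG 3482 (-1.62). Selenoh, a selenoprotein of the nucleus, fell in the same compounds (-1.12 and -0.91). It rose in Antimycin A (0.48), BerberineA (0.45), Clofilium tosylate (0.37), Dihydrorotenone (0.30) and Diphenyleneiodonium Cl (0.19), the last call being lost in some alternatives. Ndrg1, a stress-responsive gene, rose in Podofilox (1.05, adjusted p = 3.58e-12) and fell in AEG 3482 (-0.51) and Cardamonin (-0.23).

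In the remaining compounds, 3 of these 5 genes rose in Antimycin A (37.3% of all tested genes passed). In Diphenyleneiodonium Cl (25.7%), BerberineA (21.7%) and Clofilium tosylate (23.4%) 2 rose, and 1 rose and 1 fell in Dihydrorotenone (14.4%). The 5 other transcription factors known at metallothionein promoters, Nr3c1, Nfe2l2, Stat3, Usf1 and Usf2, were all tested. Cardamonin raised 2 and lowered 3 (70.3% of all tested genes passed), AEG 3482 raised 3 and lowered 1 (68.1%), and Podofilox raised 3 (46.2%). Diphenyleneiodonium Cl raised 2 (25.7%). Antimycin A (37.3%), Dihydrorotenone (14.4%), BerberineA (21.7%) and Clofilium tosylate (23.4%) raised 1 each and lowered none.

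**Figure D4:**
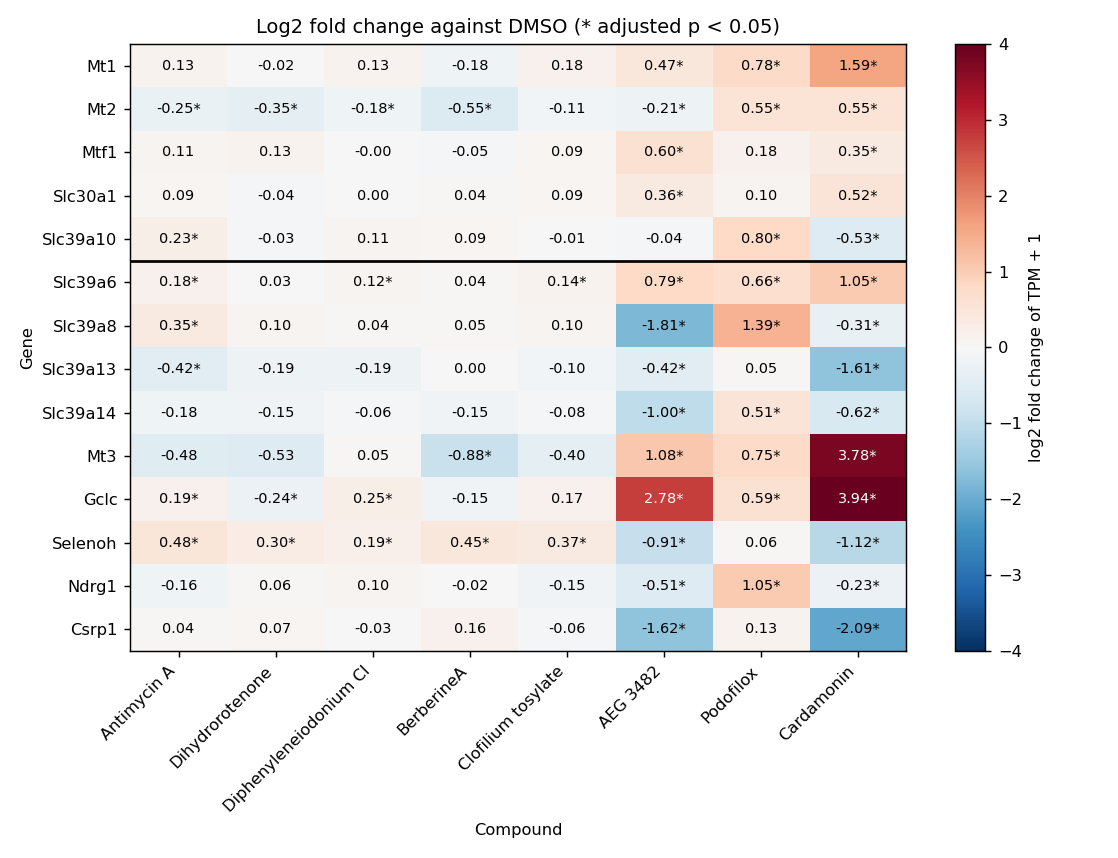
Log2 fold change on the log2(TPM + 1) scale against DMSO for the 5 genes (above the line) and the 9 listed genes with a change of at least 1 in some compound (below it), with an asterisk where the limma adjusted p was under 0.05. Mt3 (3.78) and Gclc (3.94) are darkest in Cardamonin, and Slc39a8 is lowest in AEG 3482 at -1.81.

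The genes whose 9 group means ran most like those of each member were found among 2917 tested genes with a range of at least 1 on the log2 scale. These correlations are descriptions across 9 groups that share their libraries and scaling. For Mt1 they were Lpin2 (Pearson r = 0.985), Ptprn (0.985) and Hsd17b12 (0.983). Mt2 was most like Hspa5 (0.963), the chaperone BiP of the endoplasmic reticulum, then Slc41a2 (0.954) and Lrrc8d (0.944). Hspa5 stood at 1181 TPM in Podofilox, 996 in Cardamonin, 682 in DMSO and 436 in BerberineA, so its 3 highest groups and its lowest are those of Mt2.

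Mtf1 was most like Lrrc20 (0.976), Mphosph9 (0.973) and Cptp (0.960), all highest in AEG 3482. Slc30a1 was most like Rhbdd1 (0.995), B3galnt2 (0.994) and Eaf2 (0.993), all highest in Cardamonin with AEG 3482 next. Slc39a10 was most like Rell1 (0.961), Mapre2 (0.960) and Sulf1 (0.959). Among the members themselves r was 0.86 for Mt1 with Mt2, 0.85 for Mt1 with Slc30a1 and 0.80 for Mtf1 with Slc30a1, while Slc39a10 had r from -0.51 to 0.079 with the other 4.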

How the data were processed

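RNA of 30 libraries was measured, 3 for each of 8 compounds and 6 for DMSO, grouped by the agent named in the labels. The series text speaks of 5 DMSO replicates; all 6 labelled libraries were used. Per the series text, the authors quantified transcripts with kallisto (version 0.43.1 per the submitters' processing notes, which also name mm10 and FastQC), summarised them with tximport and tested with DESeq2. The deposited values are TPM made by the authors, so each is relative to its own library's total and carries no depth. The transcript annotation is not given in the sources used here, and GENCODE M21 gave symbols for 29426 of 29861 genes.

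Tests used log2(TPM + 1) of genes reaching 1 TPM in 3 or more libraries, which understates changes of low genes, with limma 3.58.1 in R 4.3.3 (all libraries, 1 mean per group, intensity trend, Benjamini-Hochberg over genes within each of 36 contrasts, threshold 0.05). The script was tested on simulated data. The Mt1 to Mt2 ratio was compared by a two-sided exact permutation test in scipy 1.17.1. Listed genes were named when a called change reached 1 on the log2 scale with at least 5 TPM in the higher group. Likeness names the 3 most correlated of the genes compared, which leave out members, pseudogenes and predicted-gene, Riken and clone names. The members, lists and tests were chosen with earlier results of these data known. Alternatives were other pseudocounts, filters, scalings and fits, and leaving out each library.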

Additional observations from a re-analysis of the deposited data

Results flagged for a closer look

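Slc30a1 in DMSO replicate 6 was 3.21 TPM, the highest of the 6 solvent libraries and separated from the nearest of them by more of the group's range than the critical value of Dixon's test allows. The DMSO values of 15 genes or ratios were tested in this way and 1 was picked out, and chance picks out about 1 group in 20. The same library was also the highest of DMSO for Mt1, at 1476 TPM, for Mt2, at 2263 TPM, and for the ratio of Mt1 to Mt2, at 0.652, and the lowest for Slc39a10, at 18.5 TPM.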

How the results depend on the processing

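Of 40 comparisons of a member with DMSO, 17 passed, and 15 of these passed in the same direction under every alternative run. The exceptions were Mt2 in Diphenyleneiodonium Cl (without its replicate 2, adjusted p = 0.0529; 0.00166 to 0.0529 over the alternatives) and Mt2 in AEG 3482 (quantile normalization, -0.070). Quantile normalization also gave Mt1 in Antimycin A -0.022, Mt2 in Clofilium tosylate -0.14 (adjusted p = 0.0263), 1 member called in Clofilium tosylate and Slc30a1 in Diphenyleneiodonium Cl -0.024. The last was -0.011 with median-ratio scaling and -0.016 rescaled without the 20 most abundant genes. Median-ratio scaling gave Mt1 in Dihydrorotenone 0.020, Slc39a10 in Dihydrorotenone 0.0072 and Mt2 in Cardamonin against Podofilox 0.0056. The cause was not tested. Replicate numbers did not pair the libraries (correlation of same-numbered deviations from -0.0545 to 0.12). A fit with the replicate number as a block gave Mt1 in Clofilium tosylate 0.22 (adjusted p = 0.0342), Mt1 in Dihydrorotenone 0.025, Mtf1 in Diphenyleneiodonium Cl 0.11, Mtf1 in BerberineA 0.066, Mtf1 in Podofilox 0.29 (adjusted p = 0.0231) and 1 member called in Clofilium tosylate.

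With each library left out in turn, Mt1 ranged from 0.071 to 0.21 in Antimycin A, from -0.081 to 0.061 in Dihydrorotenone, from 0.070 to 0.21 in Diphenyleneiodonium Cl and from 0.12 to 0.26 in Clofilium tosylate. Mt2 ranged from -0.20 to -0.15 in Diphenyleneiodonium Cl, from -0.14 to -0.089 in Clofilium tosylate and from -0.061 to 0.059 in Cardamonin against Podofilox. Mtf1 ranged from -0.055 to 0.071 in Diphenyleneiodonium Cl, from -0.095 to 0.019 in BerberineA and from -0.047 to 0.18 in Clofilium tosylate. Slc30a1 ranged from -0.11 to 0.044 in Dihydrorotenone and from -0.047 to 0.045 in Diphenyleneiodonium Cl, and Slc39a10 from -0.075 to 0.040 in Clofilium tosylate. Members called ranged from 0 to 2 in Diphenyleneiodonium Cl and from 0 to 1 in Clofilium tosylate. The log2 ratio of Mt1 to Mt2 ranged from 0.96 to 1.10 in Cardamonin, 0.64 to 0.73 in AEG 3482, 0.35 to 0.44 in Antimycin A, 0.33 to 0.43 in BerberineA, 0.28 to 0.38 in Dihydrorotenone, 0.27 to 0.37 in Diphenyleneiodonium Cl, 0.26 to 0.35 in Clofilium tosylate and 0.19 to 0.28 in Podofilox; the exact test lost its 4 calls with any library left out except DMSO replicate 6, where fewer libraries raise its smallest p.

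Steps past the threshold ranged over the alternatives from 1 to 4 for Mt2 (1 as reported), 0 to 1 for Mtf1 (0) and 0 to 2 for Slc30a1 (1). Of 48 counts for the wider lists, 16 moved by over 1.5 times. Among zinc exporters these were AEG 3482 (2 as reported, up to 4), Dihydrorotenone (3, down to 1) and BerberineA (2, down to 1), and among importers Dihydrorotenone (2, 0 to 3), Diphenyleneiodonium Cl (4, 2 to 6) and Clofilium tosylate (3, 1 to 4). The call of Mt3 in BerberineA and in Podofilox went from 1 to 0. Copper genes moved in AEG 3482 (5, down to 3), Diphenyleneiodonium Cl (2, 1 to 3), BerberineA (2, down to 1) and Dihydrorotenone (1, down to 0), genes linked to MTF1 in Dihydrorotenone (2, 1 to 3) and Diphenyleneiodonium Cl (2, down to 1), and transcription factors in Antimycin A and Clofilium tosylate (1, up to 2). Of 38 called changes of the 9 named list genes, 30 held under every alternative. Over all genes, 34.4% of calls in Dihydrorotenone were higher as deposited, 53.8% with median-ratio scaling and 47.4% with quantile normalization. Slc30a1 has no value under the filter of a mean of 5 TPM.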
